A study of Mus musculus with 36 samples.

Results

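The genes described here are Gucy2d, Pde2a, Cnga3 and Car2, which mark the necklace neurons of the mouse olfactory system. They were taken by name, as a list of 4 of the 24690 genes listed in the series. All 4 were listed in all 36 libraries. The libraries came from the main olfactory epithelium (MOE), the vomeronasal organ (VNO) and the olfactory bulb (OB) of C57BL/6 mice aged 6 months, with no genetic modification named in the labels. From weaning at 3 weeks of age the mice had been kept 4 to a cage, either with their own sex only, as sex-separated females (SF) or males (SM), or with both sexes in the cage, as sex-combined females (CF) or males (CM). The 3 tissues were dissected from the same mice, so libraries of different tissues are not independent. Each combination of tissue and group was represented by 3 libraries, and each library was made from RNA pooled over several mice, so that the spread between libraries is a spread between pools and understates that between single mice. The number of mice in a pool is given as 2 in the GEO design text and as 3 in the study's methods.

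Necklace neurons are rare sensory neurons of the MOE whose axons end in a ring of glomeruli around the caudal olfactory bulb. Most olfactory neurons signal odorants through cyclic AMP. Necklace neurons use cyclic GMP, which is made by the receptor guanylyl cyclase GC-D, the product of Gucy2d, in response to the peptides guanylin and uroguanylin and to bicarbonate. Carbonic anhydrase II, the product of Car2, makes bicarbonate from carbon dioxide. Cyclic GMP opens a channel that contains the subunit encoded by Cnga3, and the phosphodiesterase encoded by Pde2a breaks cyclic GMP down. These neurons are known for their part in the detection of carbon dioxide and in the learning of food preferences from other mice. Pde2a and Car2 are also used by many other cell types: Pde2a is widespread in brain neurons and endothelium, and Car2 is abundant in oligodendrocytes, red blood cells and osteoclasts.

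Values are FPKM (fragments mapped to a transcript, divided by its length and by the depth of the library), summed over the transcript entries of a gene. On the mm9 genome build, Gucy2d had 1 entry on chromosome 7 (chr7:105588926-105625988), Pde2a had 8 entries on the same chromosome (chr7:108570205-108661343), Cnga3 had 2 on chromosome 1 (chr1:37275123-37320229) and Car2 had 2 on chromosome 3 (chr3:14886269-14900770). The windows of 250 bases before the start of Gucy2d and before the 2 Pde2a starts that carried most of the measured signal are shown because Gucy2d was the gene restricted to 1 tissue and because the share of Pde2a assigned to its upstream start differed between tissues. They were read from RefSeq on GRCm38.p6, on the plus strand, 5′ to 3′, at chr7:98440166-98440415 for Gucy2d, chr7:101421441-101421690 for the upstream Pde2a start and chr7:101451002-101451251 for the downstream Pde2a start, where capitals mark matches to the GC box GGGCGG on either strand.
Gucy2d: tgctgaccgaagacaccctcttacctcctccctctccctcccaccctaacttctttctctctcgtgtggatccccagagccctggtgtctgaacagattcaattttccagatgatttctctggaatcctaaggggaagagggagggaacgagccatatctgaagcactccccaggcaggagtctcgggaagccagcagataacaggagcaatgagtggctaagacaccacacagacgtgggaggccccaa
Pde2a upstream start: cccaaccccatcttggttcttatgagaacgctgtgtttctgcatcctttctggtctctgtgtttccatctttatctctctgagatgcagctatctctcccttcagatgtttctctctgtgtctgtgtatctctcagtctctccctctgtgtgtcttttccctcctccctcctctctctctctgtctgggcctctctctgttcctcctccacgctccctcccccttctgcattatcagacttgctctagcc
Pde2a downstream start: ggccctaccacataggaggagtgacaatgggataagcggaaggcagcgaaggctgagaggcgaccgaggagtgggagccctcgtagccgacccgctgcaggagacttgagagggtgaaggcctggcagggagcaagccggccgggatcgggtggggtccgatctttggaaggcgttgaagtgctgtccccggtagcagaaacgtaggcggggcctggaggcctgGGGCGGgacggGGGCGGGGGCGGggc

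The 3 windows differed in composition. The window of the downstream Pde2a start held 68.0% G or C, 19 CpG dinucleotides and 3 matches to the GC box, a motif found in 32.7% of 32851 RefSeq windows of the same length. The window of the upstream Pde2a start held 50.8% G or C and 2 CpG, and that of Gucy2d held 54.4% and 5 CpG, against medians of 52.4% and 6 over all windows. Other motifs had no match on either strand in these 3 windows. They were the homeodomain motif TAATTA, present in 4.84% of all windows, the cyclic AMP response element TGACGTCA, present in 1.55%, the promoter element TATAAA, present in 12.4%, and the E-box CACGTG, present in 6.02%. No window is shown for Car2.

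An estimated 3016520 to 6779890 fragments were assigned to genes in each library, from FPKM and its confidence limits. By summed markers, each tissue was highest for the list of its label. The summed FPKM of 10 genes of canonical olfactory neurons was 1363 to 2332 in MOE, 139 to 209 in VNO and 44.3 to 66.3 in OB. That of 10 bulb neuron genes was 480 to 615 in OB, 164 to 218 in VNO and 30.2 to 54.1 in MOE. For 7 vomeronasal genes it was 140 to 172 in VNO, 17.7 to 24.8 in MOE and 81.9 to 112 in OB. Of these, Gnao1 and Meis2 were higher in OB than in VNO (means of 11.3 against 4.85 and 57.2 against 11.9 FPKM). The vomeronasal channel gene Trpc2 had 43.0 ± 4.85 FPKM in VNO (SD, n = 12) against 0.938 ± 0.246 in MOE and 0.199 ± 0.256 in OB. In MOE, library CM3 stood apart, with the fewest estimated fragments and the lowest level of Omp, the olfactory marker protein gene of mature olfactory neurons. It was not the least sequenced. By the study's alignment statistics it had the most read pairs of the MOE libraries and the lowest percentage of reads aligned. It had 638 FPKM of Omp, and the next lowest library, SF2, had 758. Leaving out CM3 turned no call of the 4 genes. The calls over the pathway lists together moved from 24 higher and 33 lower in MOE to 25 and 32 against VNO, and stayed at 33 and 27 against OB.

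Gucy2d was measured in every MOE library and was at or near 0 elsewhere. The 3 SF libraries of MOE had 0.375, 0.328 and 0.581 FPKM of Gucy2d, the 3 SM libraries 0.430, 0.458 and 0.413, the 3 CF libraries 0.535, 0.646 and 0.247, and the 3 CM libraries 0.421, 0.327 and 0.302. The 4 groups overlapped, and the lowest as well as the highest of the 12 libraries were CF libraries. In VNO, Gucy2d was listed at 0 in 8 of 12 libraries and reached 0.0335 FPKM at most. In OB it was listed at 0 in 11 libraries and at 0.0294 FPKM in library CM1. Every VNO and OB value lay below the level of 3 fragments, which is 0.0424 to 0.0667 FPKM for this gene in VNO libraries and 0.0397 to 0.0771 FPKM in OB libraries.

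**Figure D1:**
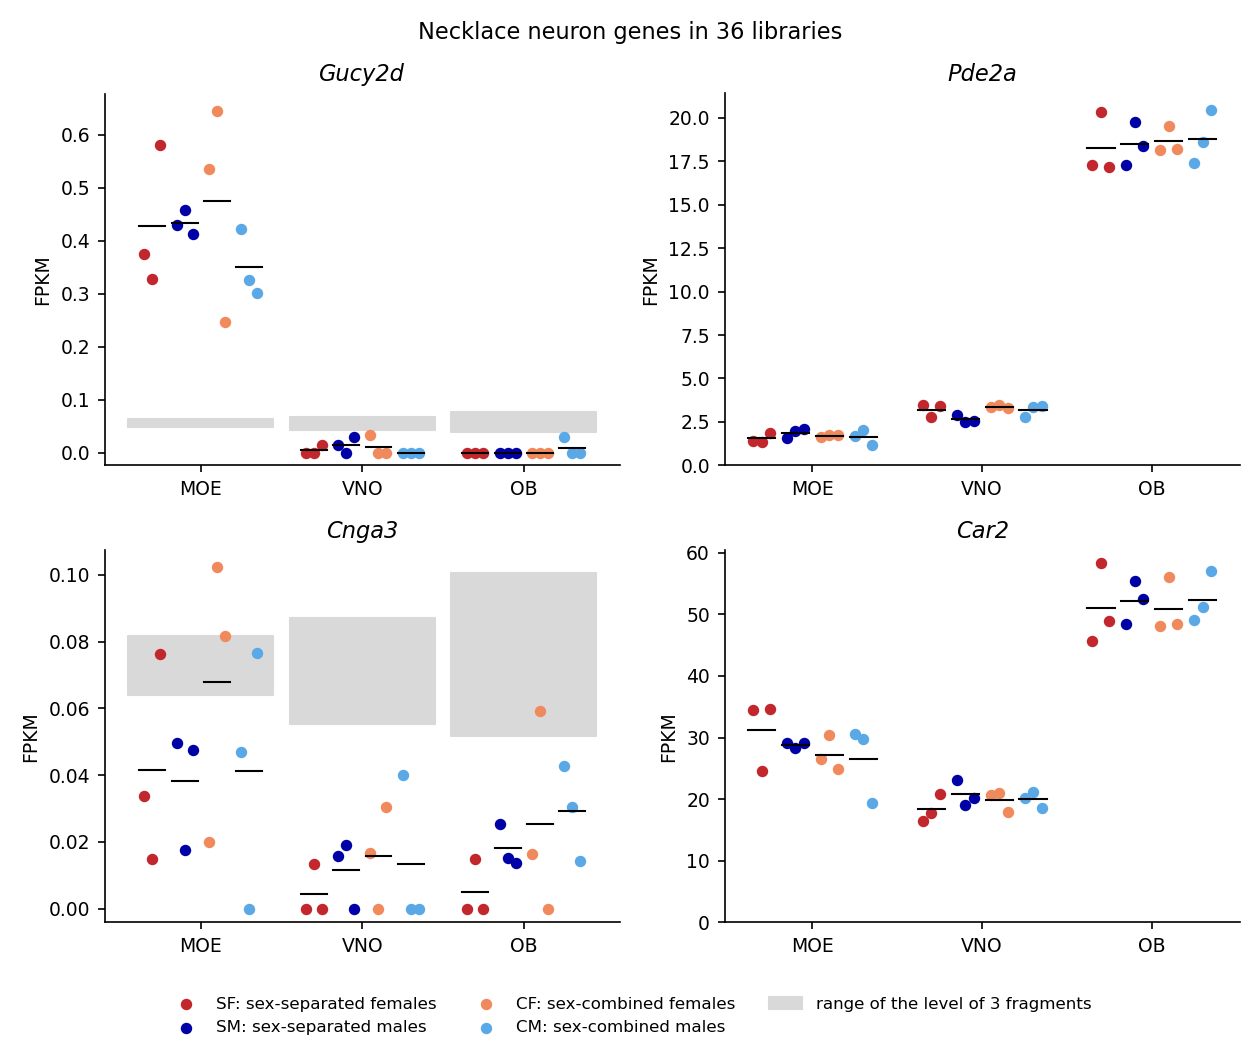
FPKM of Gucy2d, Pde2a, Cnga3 and Car2 in each of the 36 libraries, by tissue and group, with a bar at each group's mean of 3 libraries and, for the 2 low genes, a grey band over the range of FPKM that 3 fragments would give. Gucy2d lies above the band only in MOE, Cnga3 lies at or under it in nearly all libraries, and Pde2a and Car2 are highest in OB.

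Pooled over the 12 libraries of a tissue, an estimated 277 fragments of Gucy2d came from MOE, against 6 from VNO and 2 from OB. The level in MOE was 51.8-fold that in VNO (95% exact counting interval 23.5 to 142) and 156-fold that in OB (42.8 to 1297). These intervals cover counting error only. Gucy2d entered the fit across tissues through its MOE values alone, so it had to differ there, and its differences of 0.85 from VNO and 0.86 from OB on the log2(FPKM + 0.5) scale are a description that understates the fold. In bulk tissue, fewer cells of a type and less RNA per cell cannot be told apart.

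Pde2a and Car2 did not share this tissue pattern. Pde2a was lowest in MOE, and its level rose from MOE to VNO to OB with no overlap between the 3 tissues. It had 1.70 ± 0.287 FPKM in MOE (SD, n = 12; 1.15 to 2.09, median 1.73), 3.11 ± 0.377 in VNO (2.49 to 3.49, median 3.32) and 18.5 ± 1.20 in OB (17.2 to 20.4, median 18.3). On the log2(FPKM + 0.5) scale, Pde2a was lower in MOE than in VNO by a difference of -0.72 (95% interval -0.85 to -0.59, adjusted p = 1.11e-11, limma) and lower in MOE than in OB by -3.13 (-3.25 to -3.00, adjusted p = 7.63e-28). The difference between VNO and OB was -2.40 (-2.53 to -2.28, adjusted p = 6.38e-25).

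By their sums, but not gene by gene, markers of other cells that use Pde2a moved in the same order. The summed FPKM of 10 bulb neuron genes was 30.2 to 54.1 in MOE, 164 to 218 in VNO and 480 to 615 in OB. In VNO that sum came mainly from Calb2, and 6 of the 10 genes had a mean under 0.1 FPKM there. The sum of 8 endothelial genes was 15.8 to 26.9 in MOE, 25.3 to 33.3 in VNO and 35.2 to 51.6 in OB. In OB that sum came mainly from Cldn5, with a mean of 31.0 FPKM against 8.76 in VNO and 12.6 in MOE. All other genes of this list had a higher mean in VNO than in OB, such as Pecam1 with 4.58 against 2.34 FPKM. Their part in the Pde2a difference was not tested.

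Car2 was the most abundant of the 4 genes and was highest in OB. It had 28.5 ± 4.29 FPKM in MOE (SD, n = 12; 19.3 to 34.7, median 29.1), 19.7 ± 1.83 in VNO (16.5 to 23.0, median 20.2) and 51.6 ± 4.18 in OB (45.6 to 58.3). The 12 OB libraries lay above all others, and 1 MOE library, CM3, fell within the VNO range. On the log2(FPKM + 0.5) scale, the difference between MOE and OB was -0.86 (95% interval -1.01 to -0.71, adjusted p = 5.30e-12, limma) and that between VNO and OB was -1.37 (-1.52 to -1.22, adjusted p = 7.41e-17). The difference between MOE and VNO was 0.51 (0.36 to 0.66, adjusted p = 2.83e-07), but it depended on the scaling of the libraries: it was 0.29 (adjusted p = 1.80e-09) after upper quartile scaling and 0.06 (adjusted p = 0.0795) after quantile normalization.

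The other cell types that use Car2 differed in their order across tissues. Oligodendrocyte genes, 8 in the list, summed to 28.4 to 58.7 FPKM in MOE, 23.9 to 31.1 in VNO and 272 to 372 in OB; the defining myelin gene Mog was listed at 0 in every MOE library, and Ermn, which MOE supporting cells also express, made up 20.7 ± 3.92 FPKM of the MOE sum. Osteoclast genes, 6 in the list, summed to 50.1 to 94.8 in MOE, 122 to 224 in VNO and 1.20 to 2.96 in OB. Red cell genes, of which 7 of 10 were listed, summed to 137 to 430 in MOE, 451 to 1544 in VNO and 120 to 238 in OB. Their part in the Car2 differences was not tested.

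Cnga3 was close to the limit of detection in all 3 tissues. It was above 0 in 11 of 12 MOE libraries, 6 of 12 VNO libraries and 9 of 12 OB libraries, with maxima of 0.102, 0.0401 and 0.0593 FPKM. Only 3 MOE libraries, SF3, CF2 and CF3, reached an estimated 3 fragments, with 0.0763, 0.102 and 0.0817 FPKM, and no VNO or OB library did. Cnga3 passed neither filter on low values. Without a filter it was called higher in MOE than in VNO, by 0.10 on the log2(FPKM + 0.5) scale (95% interval 0.04 to 0.15, adjusted p = 0.00161, limma), and higher than in OB, by 0.07 (0.02 to 0.13, adjusted p = 0.0121). These calls rest on values of which most lie under 3 fragments, and no fold change is given.

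Of the 4 genes, 3 entered the fit across tissues. Pde2a and Car2 were called in all 3 comparisons, where 81.6% (MOE against VNO), 84.0% (MOE against OB) and 82.9% (VNO against OB) of 17447 genes were called, so that a called difference between these tissues is the rule for any gene. Gucy2d, which passed the filter through MOE alone, does not count beside these shares. The directions were mixed: Pde2a was lower in MOE than in both other tissues. Car2 was lower in MOE than in OB and higher than in VNO, a call that ended after quantile normalization. The values of each tissue were quantified apart from the others by the authors. Tissue, dissection and RNA integrity, which did not overlap between the tissues, cannot be told apart.

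Gucy2d varied more between MOE libraries than the other 2 measurable genes. Its coefficient of variation over the 12 libraries was 28.1%, and counting error alone, at 13 to 34 fragments per library, would give 21.7%. Pde2a had 16.9% in MOE, 12.1% in VNO and 6.47% in OB, and Car2 had 15.1%, 9.29% and 8.10%.

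The design asks whether the genes differ with sex and with housing. For Gucy2d, the level was also taken relative to Omp, so that the amount of olfactory neuron RNA in a library was taken into account. Gucy2d had 0.429 ± 0.0918 FPKM per 1000 FPKM of Omp in MOE (SD, n = 12). The group means were 0.430 ± 0.0916 in SF, 0.420 ± 0.0274 in SM, 0.463 ± 0.165 in CF and 0.401 ± 0.0832 in CM (SD, n = 3 each), and the groups overlapped. The value tested was log2(Gucy2d FPKM + 0.5) minus log2(Omp FPKM + 0.5). The added 0.5 is of the size of Gucy2d itself and shrinks its differences, so this is not the log2 of the ratio above. Between sex-separated and sex-combined libraries it differed by -0.06 (exact permutation test, two-sided, 6 against 6 libraries, p = 0.610, adjusted p = 0.861 over 2 tests). Between female and male libraries it differed by 0.02 (exact permutation test, p = 0.861, adjusted p = 0.861). With a pseudocount of 0.1 the differences were -0.02 and 0.07 (exact permutation test, p = 0.920 and 0.686). Neither difference was larger than the spread between libraries, and the smallest p this design allows is 0.00216.

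**Figure D2:**
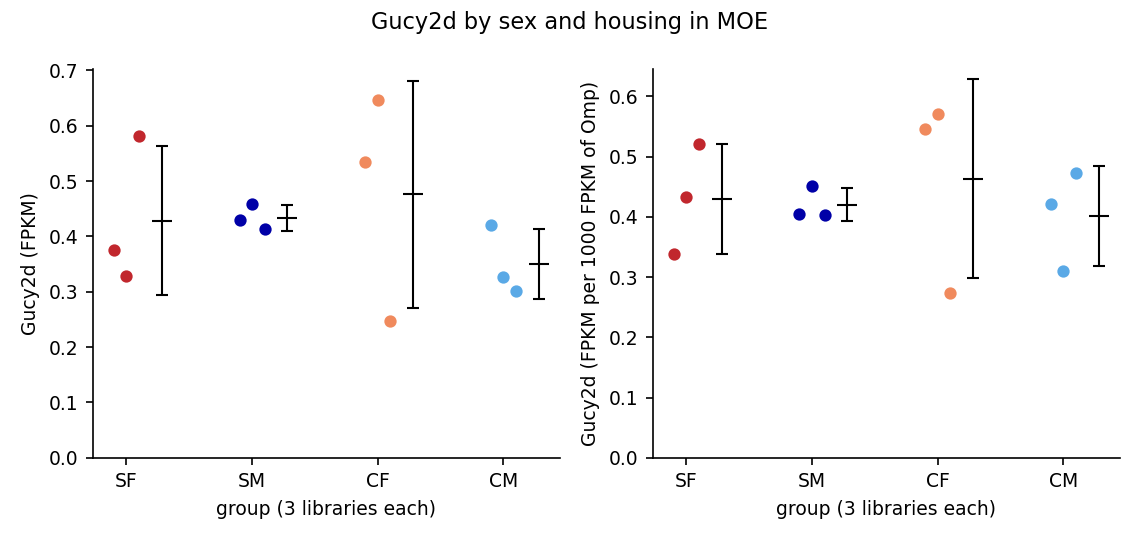
Gucy2d in the 12 MOE libraries by group, as FPKM (left) and per 1000 FPKM of Omp (right), with the mean and SD of 3 libraries beside each group. The groups overlap in both panels, with means between 0.350 and 0.476 FPKM and between 0.401 and 0.463 per 1000 FPKM of Omp.

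With a mean of 0.422 ± 0.119 FPKM (SD, n = 12), Gucy2d lay below the filter of a mean of 0.5 FPKM used within a tissue, and was tested with a filter of 0.1. Its differences of log2(FPKM + 0.5) in MOE were -0.02 for SF minus SM (95% interval -0.37 to 0.33), 0.18 for CF minus CM (-0.17 to 0.53), -0.20 for the difference of these 2 sex differences (-0.69 to 0.30) and 0.04 for sex-separated minus sex-combined (-0.21 to 0.29). The adjusted p (limma) ranged from 0.892 to 1, and 0.0676%, 0.0368%, 0.0246% and 0.0798% of genes were called in these comparisons. Differences up to the ends of these intervals remain compatible with the values.

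Pde2a was not called for sex or housing in any tissue. In MOE its FPKM were 1.43, 1.36 and 1.88 in SF, 1.58, 1.97 and 2.09 in SM, 1.62, 1.77 and 1.75 in CF, and 1.71, 2.04 and 1.15 in CM, and all 4 groups overlapped. In VNO they were 3.48, 2.77 and 3.39 in SF, 2.88, 2.49 and 2.58 in SM, 3.38, 3.49 and 3.30 in CF, and 2.77, 3.34 and 3.44 in CM. The lowest SF library of VNO lay within the SM range. The VNO difference for SF minus SM was 0.23 on the log2(FPKM + 0.5) scale (95% interval 0.02 to 0.45, unadjusted p = 0.0342, adjusted p = 0.546, limma). In OB the 4 group means of Pde2a lay between 18.3 and 18.8 FPKM.

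Car2 was not called either. In MOE its FPKM were 34.5, 24.5 and 34.7 in SF, 29.0, 28.3 and 29.2 in SM, 26.4, 30.5 and 24.8 in CF, and 30.6, 29.8 and 19.3 in CM. The 4 groups overlapped, and the SF and CM groups had the widest ranges. The difference between sex-separated and sex-combined libraries in MOE was 0.16 on the log2(FPKM + 0.5) scale (95% interval -0.16 to 0.48, adjusted p = 0.791, limma), beside a median of 0.12 over all genes tested. The group means of Car2 lay between 18.3 and 20.7 FPKM in VNO and between 50.9 and 52.4 in OB.

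Over the 3 tissues and 4 comparisons, Pde2a and Car2 gave 24 tests, of which 0 passed an adjusted p of 0.05 in limma and 1 had an unadjusted p under 0.05, the VNO difference of Pde2a above. In MOE, 0.102%, 0.0436%, 0.0363% and 0.102% of all genes were called for SF minus SM, CF minus CM, the difference of the sex differences and housing. In VNO the shares were 0.0722%, 0.0433%, 0.00% and 0.00%, and in OB 0.0391%, 0.0469%, 0.00782% and 0.00782%. With so few genes called in all, the count of 0 is no property of these genes. The widest interval was that of the difference of the sex differences for Car2 in MOE, 0.04 (-0.60 to 0.67).

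**Figure D3:**
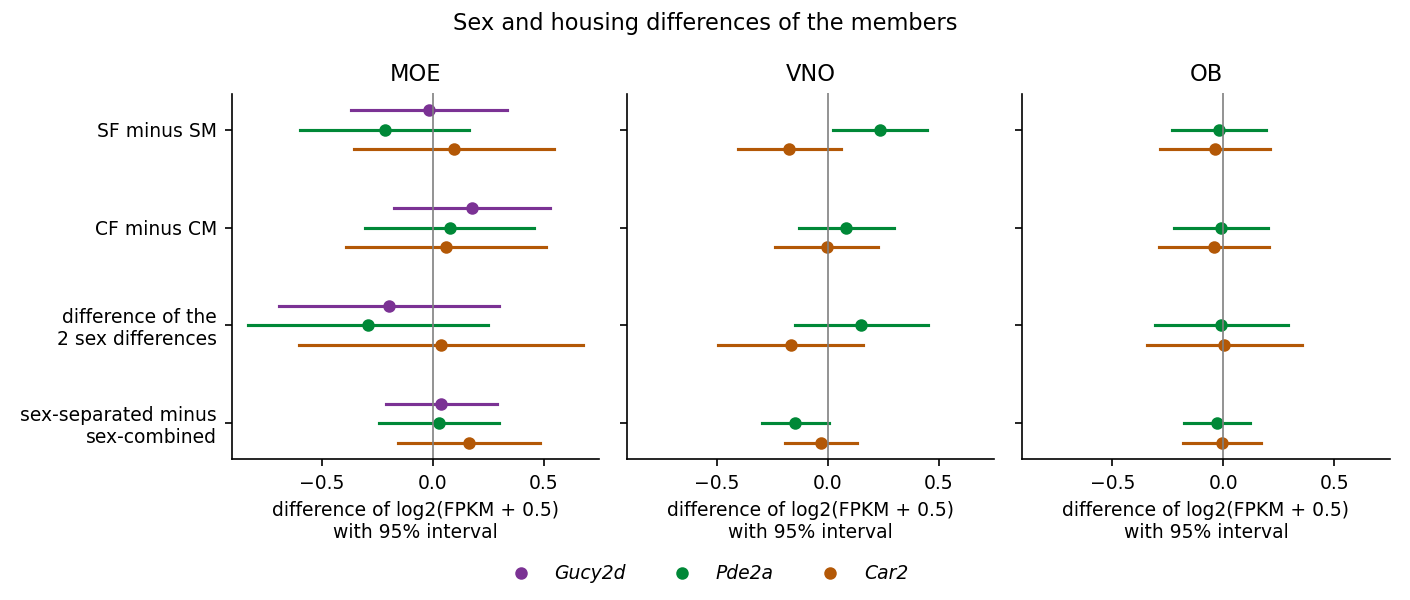
Differences of log2(FPKM + 0.5) between groups within each tissue, with 95% intervals from limma, for Pde2a and Car2 (filter at a mean FPKM of 0.5) and, in MOE, Gucy2d (filter at 0.1). Every interval crosses 0 except that of Pde2a for SF minus SM in VNO (0.02 to 0.45), which did not pass after adjustment over all genes.

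The shares of Pde2a signal assigned to its transcript entries differed across tissues. Cufflinks divides the fragments that several entries share, so an entry's value is an estimate. The 3 entries of the upstream start (NM_001143848, NM_001008548 and NR_152192, at 108570205 on mm9) and the 2 of the downstream start (NM_001143849 and NM_001243757, at 108599766) carried nearly all of the signal in MOE and OB. In VNO, NR_152194, which starts further downstream at 108604576, had a mean of 0.0775 FPKM (above 0 in 2 libraries), beside 0.0718 for the upstream start. The upstream start took 15.2% ± 4.94 of Pde2a FPKM in OB (SD, n = 12), with 1 library, CF3, at 0 and a maximum of 18.4%. It took 2.11% ± 5.02 in VNO, where 10 of 12 libraries were listed at 0, and 8.92% ± 9.91 in MOE, where 6 were. The difference of -13.1 percentage points between VNO and OB was larger than the spread between libraries (permutation test, two-sided, 12 against 12 libraries, 100000 resamples, p = 6.00e-05, adjusted p = 0.000180 over 6 tests). MOE differed from VNO by 6.81 points (adjusted p = 0.0627) and from OB by -6.30 points (adjusted p = 0.0678), and neither passed. With shares of estimated fragments, chosen after seeing the data, the difference between MOE and OB was -8.65 points (adjusted p = 0.00537). The difference between MOE and VNO passed when any 1 of MOE SF1, SF2, SM1, SM3, CF2 and CM2 or VNO CF2 was left out (5.26 to 7.98 points over the 24 libraries left out in turn, with the lowest adjusted p at 0.0280), and that between MOE and OB passed without MOE SM2 (-7.85 points, adjusted p = 0.0281) or OB CF3 (-7.69 points, adjusted p = 0.0234). With tissues exchanged only between libraries of the same group and replicate number (exact permutation test, chosen after seeing the data), VNO and OB still differed (adjusted p = 0.00293) and the MOE comparisons did not pass (adjusted p = 0.0938 and 0.0949). Single libraries thus decide both MOE calls, and the depth of 53 to 110 Pde2a fragments per MOE library limits this comparison. VNO libraries had 117 to 220 Pde2a fragments and OB libraries 534 to 984, so VNO and OB also differed in depth. The RNA integrity numbers given by the study did not overlap between the tissues either. They were lowest in VNO, higher in MOE and highest in OB, the same order as the upstream share. The part of depth and of RNA integrity in the differences in share was not tested.

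The 2 entries of Car2 start 19 bases apart, at 14886269 (NM_001357334) and 14886288 (NM_009801) on mm9. NM_009801 took 43.5% ± 8.28 of Car2 FPKM in OB (31.9 to 53.8), 24.1% ± 10.9 in VNO (10.8 to 48.4) and 20.2% ± 9.41 in MOE (0 to 40.4; SD, n = 12 each). OB differed from the other tissues beyond the spread between libraries, although single libraries overlapped. The share was lower in MOE than in OB by a difference of -23.3 points (permutation test, two-sided, p = 2.00e-05, the smallest that 100000 resamples can give, adjusted p = 0.000120) and lower in VNO than in OB by -19.4 points (adjusted p = 0.000320). Between MOE and VNO the difference was -3.86 points (adjusted p = 0.365). With the same exchange within group and number, both differences from OB had an adjusted p of 0.00293 (exact permutation test). RNA integrity was also highest in OB, and its part in these differences was not tested.

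**Figure D4:**
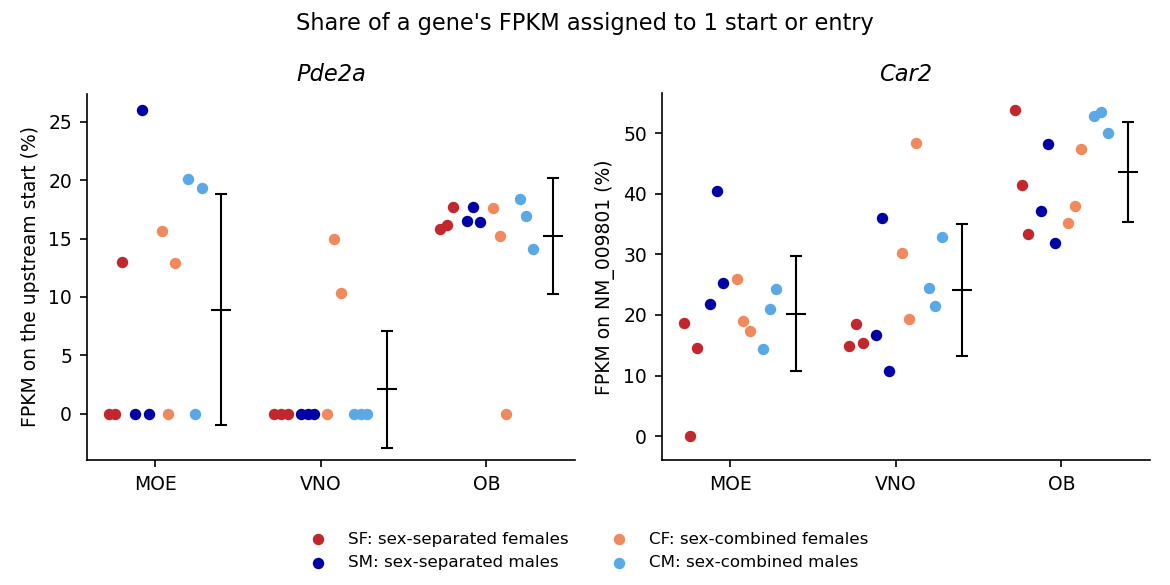
Percent of Pde2a FPKM assigned to the upstream start (left) and percent of Car2 FPKM assigned to NM_009801 (right) in each library, with the mean and SD of the 12 libraries of a tissue. The Pde2a share is at 14% to 18% in 11 OB libraries and at 0 in 10 VNO libraries, and the Car2 share is highest in OB, with a mean of 43.5%.

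The measurable genes were weakly to moderately correlated with one another between MOE libraries. Pearson's r of log2(FPKM + 0.5) over the 12 MOE libraries, which share depth and dissection, was 0.32 between Gucy2d and Pde2a (Spearman's rho 0.27) and 0.54 between Gucy2d and Car2 (rho 0.49). Between Pde2a and Car2 it was 0.57 (rho 0.41) with all libraries and -0.15 without CM3 and SF2, so that it rested on those libraries. Car2 followed the markers of canonical olfactory neurons, with an r of 0.93 with Omp (rho 0.84) and 0.94 with Cnga2 (rho 0.92), and of 0.83 and 0.89 without CM3 and SF3. An r above 0.8 with Car2 was reached by 5085 of 13756 genes, against 771 for Pde2a and 35 of 13757 for Gucy2d. Counting error lowers r, and in MOE it alone would give a coefficient of variation of 4.59% for Car2, 11.1% for Pde2a and 21.7% for Gucy2d. Its part in these counts was not tested. Gucy2d had an r of 0.60 with Omp (rho 0.62) and 0.37 with Cnga2 (rho 0.21).

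By the same measure the genes most like Gucy2d across MOE libraries were Sgf29 (0.93), Nob1 (0.92), Lsm2 (0.91), Dll1 (0.89) and Spint2 (0.87), and the least like were Pisd-ps1 (-0.69), Eno1 (-0.61) and Pinlyp (-0.59). The genes most like Pde2a were Plekhg1 (0.94), Hey2 (0.94) and Trpc4ap (0.93), and those most like Car2 were Ythdf2 (0.99), Msi2 (0.98) and Pkp2 (0.98). None of these is in the pathway lists described below. They are the extremes of all genes tested, over 12 libraries, and are a description with no test.

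The other genes of the pathway are described by role, on the FPKM scale, with calls from the same fit across tissues. A gene that is high in 1 tissue only could pass the filter through that tissue, so the counts of calls are a description. Cngb3, which encodes a channel subunit that pairs with that of Cnga3 in cone photoreceptors, resembled Gucy2d. It had 0.108 ± 0.0461 FPKM in MOE (SD, n = 12; 0.0374 to 0.195), with an estimated 116 fragments from MOE, 6 from VNO and 3 from OB. The ratio was 21.7 to VNO (95% exact counting interval 9.67 to 60.3) and 43.6 to OB (14.6 to 215), although Cngb3 lay below the filter of the fit across tissues. The subunits of the canonical olfactory channel were far more abundant in MOE: Cnga2 had 213 ± 36.9 FPKM, Cnga4 71.3 ± 10.2 and Cngb1 16.0 ± 2.70. These 3 were the only channel genes tested of 6 listed, and all 3 were higher in MOE than in both other tissues. Cnga1, the rod subunit, had 0.0175 ± 0.0183 FPKM in MOE. The cone genes Opn1sw and Arr3 were listed at 0 in every MOE library.

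Among the 11 guanylyl cyclases listed, 10 were tested, and in each comparison 3 were called higher and 7 lower in MOE, where 45.9% (against VNO) and 46.6% (against OB) of all genes were higher and 35.6% and 37.4% lower. Their median difference was -0.92 against VNO and -1.25 against OB, beside 0.09 for all genes in both. Besides Gucy2d, Gucy2f and the soluble subunit Gucy1b2 were higher in MOE than in VNO. For Gucy2f the mean was 0.231 ± 0.0273 FPKM in OB, 0.101 ± 0.0426 in MOE and 0.0160 ± 0.0111 in VNO. For Gucy1b2 it was 0.716 ± 0.132 in MOE and 0.498 ± 0.150 in VNO, and in OB it was 0.0397 ± 0.0265. The 3 called higher than in OB were Gucy2d, Gucy1b2 and Gucy2c. The largest levels in this family were those of the nitric oxide-sensitive soluble cyclase in OB, with 46.1 ± 4.52 FPKM of Gucy1b1 and 9.42 ± 1.01 of Gucy1a1, against 1.01 ± 0.206 and 0.726 ± 0.115 in MOE. Gucy1a2 had 3.37 ± 0.424 FPKM in OB and 0.319 ± 0.0559 in MOE. The natriuretic peptide receptors Npr1 and Npr2 had 0.734 ± 0.151 and 1.27 ± 0.201 in MOE, and were called lower there than in VNO and OB. Gucy2g had 0.0246 ± 0.0226 in MOE, 0.243 ± 0.0692 in VNO and 1.11 ± 0.229 in OB, and Gucy2e, which was not tested, had at most 0.0894 ± 0.0320 in OB.

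The peptide ligands Guca2a (guanylin) and Guca2b (uroguanylin) were listed at 0 in all 36 libraries. Gucy2c, the intestinal receptor of these peptides, had 2.28 ± 0.335 FPKM in VNO, 0.666 ± 0.481 in MOE and 0.0140 ± 0.00963 in OB (SD, n = 12), and was called lower in MOE than in VNO (-1.32) and higher than in OB (1.10) on the log2(FPKM + 0.5) scale.

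**Figure D5:**
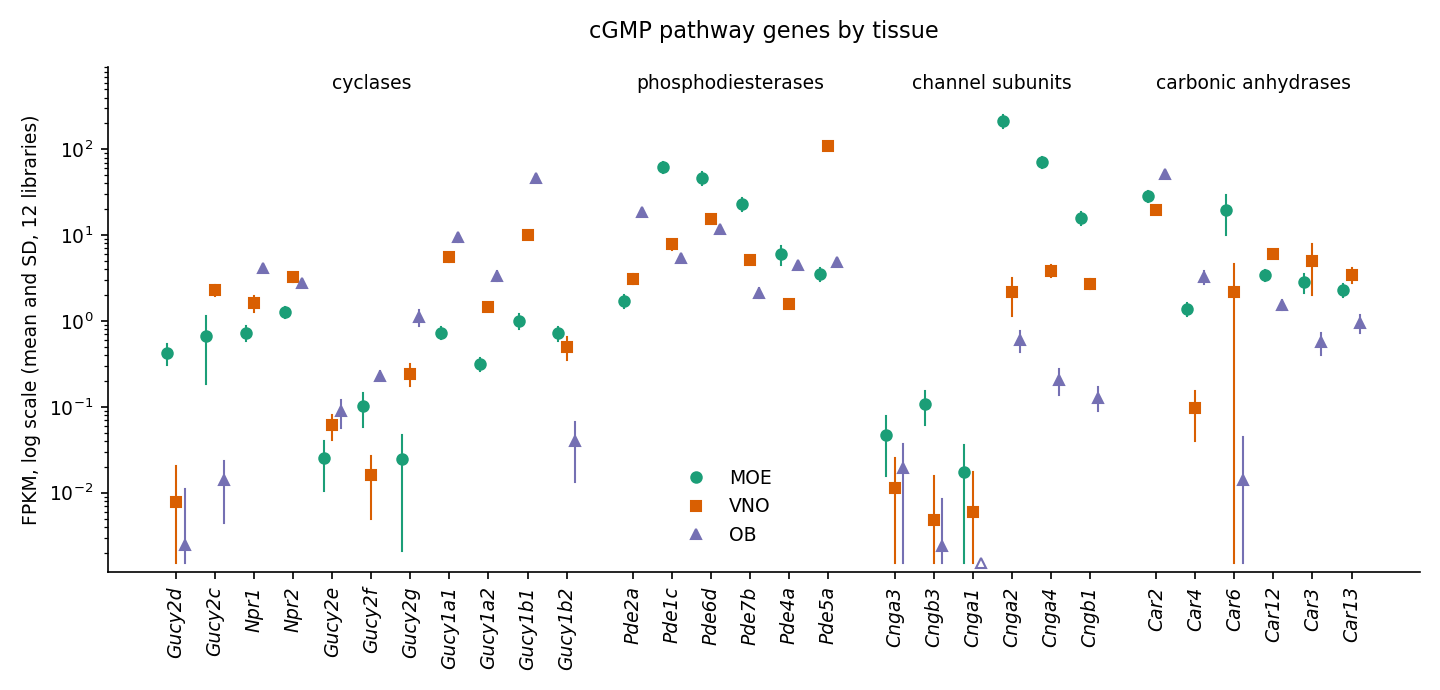
Mean FPKM and SD over 12 libraries per tissue, on a log axis, for guanylyl cyclases, phosphodiesterases, channel subunits and carbonic anhydrases. Open symbols at the lower edge mark genes at 0 in every library, and bars that reach the edge extend to values at or below it. Gucy2d and Cngb3 have MOE means of 0.422 and 0.108 and are near 0 in VNO and OB, and Pde2a and Car2 are highest in OB.

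Of 24 phosphodiesterase genes, 20 were tested, and in each comparison 6 were higher and 11 lower in MOE, beside the 45.9% and 46.6% of all genes higher and the 35.6% and 37.4% lower. The 5 with the highest level in MOE were all above Pde2a there. They were Pde1c, the phosphodiesterase of canonical olfactory cilia, with 62.2 ± 9.21 FPKM, Pde6d with 46.0 ± 7.79, Pde7b with 23.0 ± 3.85, Pde4a with 6.05 ± 1.52 and Pde5a with 3.53 ± 0.589 (SD, n = 12). Pde5a, which is specific for cyclic GMP, had 110 ± 11.1 FPKM in VNO, the highest level of a phosphodiesterase in any of the 3 tissues. The activators of the retinal cyclases, Guca1a and Guca1b, had 0.169 ± 0.143 and 0.181 ± 0.0834 FPKM in MOE. Both were called higher there than in OB, which ended after quantile normalization (adjusted p = 0.939 and 0.329) and, for Guca1a, after upper quartile scaling (adjusted p = 0.0506), and against VNO Guca1a was lower and Guca1b higher. The kinases that cyclic GMP activates, Prkg1 and Prkg2, were lower in MOE than in OB, and Prkg1 was lower than in VNO.

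Of 16 carbonic anhydrases, 15 were tested. Against VNO 8 were higher in MOE and 4 lower, and against OB 8 were higher and 6 lower, beside the shares of all genes given above. These splits moved with the scaling, to 7 and 6 against VNO after upper quartile scaling and to 5 and 7 against OB after quantile normalization. After Car2, the highest in MOE were Car6, a secreted form, with 19.9 ± 9.70 FPKM, Car12 with 3.41 ± 0.506, Car3 with 2.84 ± 0.721 and Car13 with 2.30 ± 0.417. Car4, a membrane-bound form, had 3.25 ± 0.575 in OB, 1.37 ± 0.238 in MOE and 0.0966 ± 0.0565 in VNO.

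The MS4A genes encode membrane proteins that have been described as receptors of necklace neurons, and several are also known from immune cells. Of 18 in the list 17 were listed and 11 tested. Against VNO 0 were called higher in MOE and 9 lower, by limma (Ms4a1, at 0.23, had an adjusted p of 0.0563; 45.9% of all genes were higher and 35.6% lower), and against OB 8 were higher and 1 lower (after quantile normalization, 1 and 9 against VNO and 6 and 1 against OB). Of the 9, Ms4a8a (0.353 ± 0.191 FPKM in VNO) and Ms4a4d (0.295 ± 0.123) passed the filter through VNO alone and had to be lower in MOE, and Ms4a15 passed through OB alone. Ms4a4b (0.291 ± 0.0947 in VNO, 0.111 ± 0.0730 in MOE) passed only because its VNO level was higher, so its direction was fixed as well. The list held 9 genes with a mean of at least 0.1 FPKM in MOE, led by Ms4a7 with 1.77 ± 0.493, Ms4a6c with 1.03 ± 0.173 and Ms4a6b with 1.02 ± 0.284 FPKM. Ms4a6d had the next mean. Ms4a1, Ms4a4a, Ms4a4c, Ms4a3 and Ms4a4b had means between 0.111 and 0.384. In VNO Ms4a7 had 3.59 ± 0.628 and Ms4a6c 2.65 ± 0.631. The 1 gene lower in MOE than in OB was Ms4a15, chosen for mention after its values were seen, with 10.3 ± 1.23 FPKM in OB, 0.0111 ± 0.0165 in VNO and 0.00377 ± 0.0131 in MOE.

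The 8 genes of cyclic AMP transduction in canonical olfactory neurons were all higher in MOE than in VNO and in OB, with median differences of 3.25 and 4.74, beside 0.09 over all genes, of which 45.9% and 46.6% were higher. Of the 3 necklace neuron genes in the same fit, Pde2a was lower in MOE in both comparisons. Car2 was lower in MOE than in OB and higher than in VNO, a call that ended after quantile normalization. Gucy2d was higher in MOE in both, but it had passed the filter through MOE alone, so its direction was fixed. The difference between the lists was not tested.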

How the data were processed

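RNA of MOE, VNO and OB was depleted of ribosomal RNA (TruSeq Stranded Total RNA, Ribo-Zero Gold) and sequenced as pairs of 50 bases on 2 lanes. The authors aligned the reads with TopHat2 2.1.0 and deposited FPKM values with 95% confidence limits per RefSeq transcript from Cufflinks 2.2.1.0 (mm9), 1 table per library; Cuffdiff is also named in the submitters' processing notes. No read counts were used here.

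Accessions were mapped to symbols (99.7% of entries), and FPKM were summed per gene. Limits lie 2 standard errors from FPKM, so the fragments behind a value were estimated as FPKM over its standard error, squared; for genes with several entries this estimate is low. A floor of 3 fragments was used. Tests used limma 3.58.1 (R 4.3.3, eBayes with trend) on log2(FPKM + 0.5) with Benjamini-Hochberg adjustment over all genes at a threshold of 0.05: 1 fit of 36 libraries in 12 groups for tissues (mean FPKM of at least 0.1), and 1 fit of 12 libraries per tissue for sex and housing (at least 0.5). Single values were compared by permutation of libraries (scipy 1.17.1). The scripts were tested on simulated data. Replicate numbers were not taken as pairs in the main tests, because what they mark is not stated.

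Named are the 4 genes, pathway genes by value where the list called for it (cyclases, channel subunits, the 5 highest phosphodiesterases and carbonic anhydrases, MS4A genes of at least 0.1 FPKM in MOE, the peptide ligands), and the genes of extreme correlation. The members and lists were chosen with earlier results of these data known. P-values measure the spread between pools. Other pseudocounts, filters, scalings, fits and each library left out were tried.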

Additional observations from a re-analysis of the deposited data

How the results depend on the processing

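The alternatives were other pseudocounts, filters and scalings, Cnga2 in place of Omp, fits on the compared libraries only, a block on the replicate number and each library left out. Of 350 values for the tissue differences of single members, 349 kept their direction and side of the threshold. The exception was Car2 between MOE and VNO, 0.06 with an adjusted p (limma) of 0.0795 after quantile normalization. This count includes values that could hardly turn. Gucy2d gave 43 of them against VNO and 43 against OB, nearly all under a filter that it passed through MOE alone. Leaving out a library of the tissue not compared did not change a difference. The count of members called between MOE and VNO was 4 without a filter, where Cnga3 was added, 2 with a filter of 0.5, where Gucy2d was left out, and 2 after quantile normalization; between MOE and OB it was 4, 2 and 3. The size of the Gucy2d difference followed the pseudocount, from 2.25 (pseudocount 0.1) to 0.49 (pseudocount 1) against VNO. The counts of members called within tissues stayed at 0 in 234 of 234 recomputations. The single differences of Pde2a and Car2 between groups, none of them called, changed sign in 59 of 468 recomputations. Where they did, the recomputed difference was at most 0.15 in size. The lowest adjusted p (limma) over the 468 was 0.363. Among these, the Car2 interaction in MOE ranged from -0.0785 to 0.246 over the libraries left out. The housing difference of Gucy2d relative to Omp changed sign with Gucy2d alone (0.0391) and ranged from -0.123 to 0.0128 over the libraries left out, turning without MOE CM3. The sex difference changed sign with a pseudocount of 1 (-0.00334) and ranged from -0.0287 to 0.107, turning without MOE SF2, CF1 or CM2. None of these values passed, and the cause was not tested. The share of Pde2a on its upstream start differed between MOE and OB by -8.65 points with shares of estimated fragments. Over the libraries left out, an alternative also chosen after seeing the data, it ranged from -7.85 to -5.49, and between MOE and VNO from 5.26 to 7.98. The median difference of all genes between MOE and VNO moved from 0.09 to -0.04 with upper quartile scaling, and that for housing in MOE from 0.12 to -0.00135. Libraries with the same replicate number did not consistently deviate together (mean r of 0.00813 across tissues and 0.0246, 0.0650 and 0.00392 within MOE, VNO and OB, with negative values in each, against -0.0325 for different numbers in VNO). Such correlations cannot tell whether equal numbers mark the same mice, and neither the labels nor the study's methods say so. The numbers were therefore not taken as pairs in the main tests. The replicate block left 3, 3 and 2 members called between tissues and 0 within them and ended no call on transcript shares, and the Gucy2d ratio gave -0.06 with an adjusted p of 0.898 (exact permutation test). Depth limits Gucy2d (13 to 34 fragments per MOE library) and Cnga3 most.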
